A study of Danio rerio with 12 samples.

Results

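Forkhead box (Fox) transcription factors share a winged-helix DNA-binding domain and are sorted by their sequence into classes named with letters. The genes compared here are those whose single symbol in the array's annotation starts with fox, a class letter from a to s and a digit, which gave 59 genes of the 20667 named genes on the array. Each gene was read through 1 probe set, and for the 14 of the 59 that had several, this was the brightest on average over the 12 arrays. The probe sets of *foxa*, which has no digit, of *foxa1*, which carries a second symbol, and of FOXP3B, written in capitals, were not counted.

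The samples were pieces of zebrafish embryos in 4 groups of 3 arrays. Region 1 is the piece that carries the somites with other tissues around them, and Region 2 is the piece behind the last somite, with the tailbud, the presomitic mesoderm and the left-right organiser (LRO, or Kupffer's vesicle). From each region, Tg(hsp70:HA-*dmrt2a*) embryos were compared with wildtype control embryos, both on a Tubingen background. All embryos, controls included, were heat-shocked at bud-stage for 30 min at 39 °C, raised at 28 °C and dissected from 2 h to 2 h 30 min later, when they had about 3 to 4 somites. Each array read RNA from a pool of 100 pieces, and replicates came from different breeders. The transgene adds an HA-tagged copy of *dmrt2a*, a DM-domain transcription factor, under the *hsp70* promoter, which heat switches on in most cell types, and the line was bred from fish chosen for a single inserted copy. In whole pieces, fewer cells of a type and less RNA per cell cannot be told apart.

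Fox factors work at many points of the early embryo. *foxj1a* and *foxj1b* switch on the genes of motile cilia, which drive the flow in the LRO. *foxh1* binds Smad proteins and carries Nodal signals to their target genes, *foxd3* specifies neural crest, *foxc1a* and *foxc1b* act in paraxial mesoderm and vessels, and *foxb1a* and *foxb1b* mark the neural tube. Many Fox genes are held by zebrafish as a and b duplicates, which allows relatives to be compared within an array.

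Transgenic *dmrt2a* raised the *dmrt2a* signal 2.63-fold in Region 2, from 7.37 ± 0.042 to 8.76 ± 0.07 on the log2 scale (SD over 3 arrays, adjusted p = 0.00352), while in Region 1 it was 8.39 ± 0.056 in control and 8.74 ± 0.008 in transgenic pieces, 1.28-fold (adjusted p = 0.0991). Adjusted p-values are from limma, corrected over all 75212 probe sets. Array medians were 3.47 to 3.49 in Region 1 and 3.29 to 3.32 in Region 2, and signals of a probe set read relative change, not transcript number, so the levels of different genes were not ranked, and ratios of relatives within an array are read only for how they change between groups. Region labels were checked with marker lists: 8 of 9 somite markers were higher in Region 1 control pieces. The other, *myf5*, was higher in Region 2 control pieces (-1.77 log2, Region 1 minus Region 2, adjusted p = 9.18e-09). All 12 of 12 tailbud and presomitic mesoderm markers were higher in Region 2 control pieces. Of 9 hindbrain and head markers, 5 were higher in Region 1 control pieces and none in Region 2. Among these were *hoxb1a* (35.3-fold) and *egr2b* (12.3-fold), so Region 1 levels are not those of somites alone. Of 7 markers of Kupffer's vesicle, 2 were higher in Region 2 and 3 in Region 1, and only 4 had a mean log2 signal of 4 or more. *foxj1a*, which is among those higher in Region 1, and *foxa3*, in the endoderm list below, are themselves Fox genes compared here. The marker lists also differed between the genotypes. In Region 1, 4 of the 12 tailbud markers rose with the transgene (*tbx16*, *tbx6l*, *her7* and *msgn1*, by 0.95, 0.75, 0.58 and 0.53 log2), with 8 higher and 2 lower at p under 0.05 before adjustment and none called by the methods' one-way ANOVA, and 2 of 9 hindbrain and head markers fell (*gbx2*, -1.62 log2, and *hoxb1a*, -0.77). In Region 2 no tailbud marker passed the limma test, with 4 higher and 1 lower before adjustment and again none by the one-way ANOVA, and 2 head markers fell (*otx2b*, -1.06, and *six3b*, -0.94). Of the 9 somite markers, *pax3a*, which is also in the neural crest and plate border list below, fell in Region 1 (-0.53). In Region 2, *myf5* (-1.19), *myod1* (-0.59) and *pax3a* (-0.50) fell. None rose past the limma test. At p under 0.05 before adjustment, 2 somite markers were higher and 2 lower in Region 1, and 2 higher and 4 lower in Region 2. Their list medians were 0.05 and -0.02 log2. Of the 5 endothelium and blood markers, *etv2* and *tal1* fell in both regions and none rose past the limma test. From this list *etv2*, *tal1*, *lmo2* and *kdrl* are also in the vessel list below. At p under 0.05 before adjustment, 3 of the 5 were higher and 2 lower in Region 1. In Region 2, 1 was higher and 3 were lower. The list medians were 0.20 log2 in Region 1 and -0.41 in Region 2. Of the 3 endoderm markers, only *cxcr4a*, which is also in the vessel list below, passed the limma test, with a fall in Region 2. At p under 0.05 before adjustment, 0 were higher and 2 lower in each region. The list medians were -0.43 log2 in Region 1 and -0.28 in Region 2. The part of these differences in the results on Fox genes was not tested.

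In Region 1, 4 of the 59 Fox genes were lower in transgenic pieces at an adjusted p under 0.05, *foxh1*, *foxb1a*, *foxj1b* and *foxd3*, which is 6.78% of them, where 0.644% of all named genes were. Another 2, *foxp2* and *foxj2*, were higher (3.39%, against 0.31% of all named genes). In Region 2, *foxj1b* and *foxb1a* were lower (3.39%, against 0.871%) and *foxd2* was higher (1.69%, against 0.14%). With a fold of 2 added to the threshold, 3 genes were left in Region 1 (*foxh1*, *foxb1a* and *foxj1b*) and 1 in Region 2 (*foxj1b*), which is 5.08% and 1.69% of the Fox genes, against 0.237% of all named genes in either region.

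Over all 59 Fox genes the differences went both ways. The median difference was -0.02 log2 in Region 1 and 0.04 in Region 2, beside 0.01 and 0.0 over all named genes, with 29 above and 30 below in Region 1 and 33 above and 26 below in Region 2. Without adjustment, p was under 0.05 in Region 1 for 11 higher and 8 lower Fox genes (18.6% and 13.6%, against 9.33% and 6.73% of all named genes), and in Region 2 for 8 higher and 8 lower ones (13.6% each, against 5.34% and 7.96%). The transgenic and control arrays did not overlap for 23 Fox genes in Region 1 (39.0%, against 26.5% of all named genes) and for 21 in Region 2 (35.6%, against 23.3%). Signal height bears on these counts: all genes called in either region were among the 33 whose mean log2 signal was 4 or more, and none was among the 26 below 4. The share of all named genes by signal height was not counted. The percentages above therefore do not compare Fox genes with equally bright genes.

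**Figure D1:**
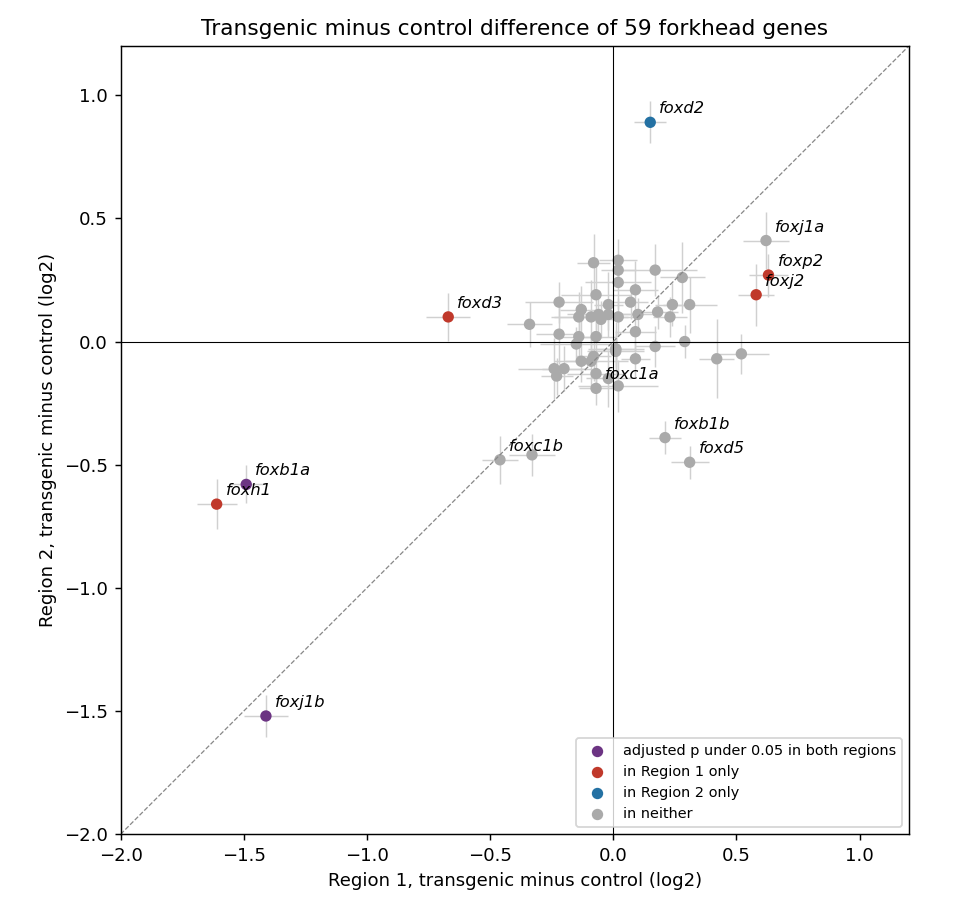
Transgenic minus control difference of the 59 Fox genes in Region 1 (horizontal, log2) against Region 2 (vertical, log2), each point a gene, with standard errors and a dashed line of equal difference. *foxj1b* lies near that line at -1.41 and -1.52, *foxh1* and *foxb1a* lie far to the left of it at -1.61 and -1.49 in Region 1, and most other genes lie near 0.

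The cilia genes *foxj1b* and *foxj1a* moved apart. In Region 1, *foxj1b* read 5.93, 5.95 and 5.87 in control arrays and 4.55, 4.36 and 4.63 in transgenic arrays. In Region 2, it read 5.31, 5.37 and 5.53 in control arrays and 3.81, 3.86 and 3.96 in transgenic arrays. All transgenic arrays were below all control arrays of their region, by 2.65-fold in Region 1 (-1.41 ± 0.0886 log2, SE, adjusted p = 0.00473) and 2.88-fold in Region 2 (-1.52 ± 0.0865, adjusted p = 0.00375). The falls in the regions differed by -0.12 ± 0.122 log2 (adjusted p = 0.83). A second probe set of *foxj1b* with values of its own also fell, with differences of -1.79 in Region 1 and -1.62 in Region 2 (adjusted p = 0.00164 and 0.00286). *foxj1b* was picked out by the study from these arrays, so its fall here is a description and not independent evidence. The qPCR primer list of the study also holds *foxh1* and *foxb1a*, so their falls below are read with the same limit. For *foxj1b* the paper reports qPCR on other pools from the somite region, with a lower level after overexpression and a higher level after knockdown of *dmrt2a*. The paper reports that qPCR after overexpression bore out all its selected genes except *ctslb* in the somite region. It counts as downstream only genes that moved in opposite directions after overexpression and knockdown. Its list of such genes holds *foxj1b* but not *foxh1* or *foxb1a*. Its text gives no separate qPCR result for *foxh1* or *foxb1a*.

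*foxj1a* read 6.15, 6.37 and 6.26 in control and 7.02, 6.82 and 6.80 in transgenic arrays of Region 1. In Region 2 it read 5.77, 5.88 and 6.0 in control and 6.50, 6.26 and 6.14 in transgenic arrays. The groups did not overlap in either region, with transgenic arrays above, but the difference did not pass the test (Region 1 0.62 ± 0.0945 log2 with adjusted p = 0.064, Region 2 0.41 ± 0.116 with adjusted p = 0.261). In Region 1 it passed in 4 of 10 other settings, with adjusted p from 0.012 to 0.237. Within an array, the log2 ratio of *foxj1b* to *foxj1a* changed by -2.03 in Region 1 and by -1.94 in Region 2, and no transgenic array reached a control array.

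Genes of the motile cilium were counted beside them. The list held cilia motors, assembly factors, radial spoke, ciliary transport and tubulin genes, the channel gene *pkd2* and the transcription factors *rfx2* and *rfx4*. Of its 38 measured genes, none passed the limma test in either region, with a median of 0.08 log2 in Region 1 and 0.02 in Region 2. Which of them depend on Foxj1 in these pieces was not tested. Before adjustment, p was under 0.05 for 2 higher and 1 lower gene in Region 1 and for 1 each way in Region 2, and the one-way ANOVA called none. Only 18 of the 38 had a mean log2 signal of 4 or more. In control pieces 6 of the 38 were higher in Region 1 and 4 in Region 2, beside 26.0% and 11.7% of all named genes.

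**Figure D2:**
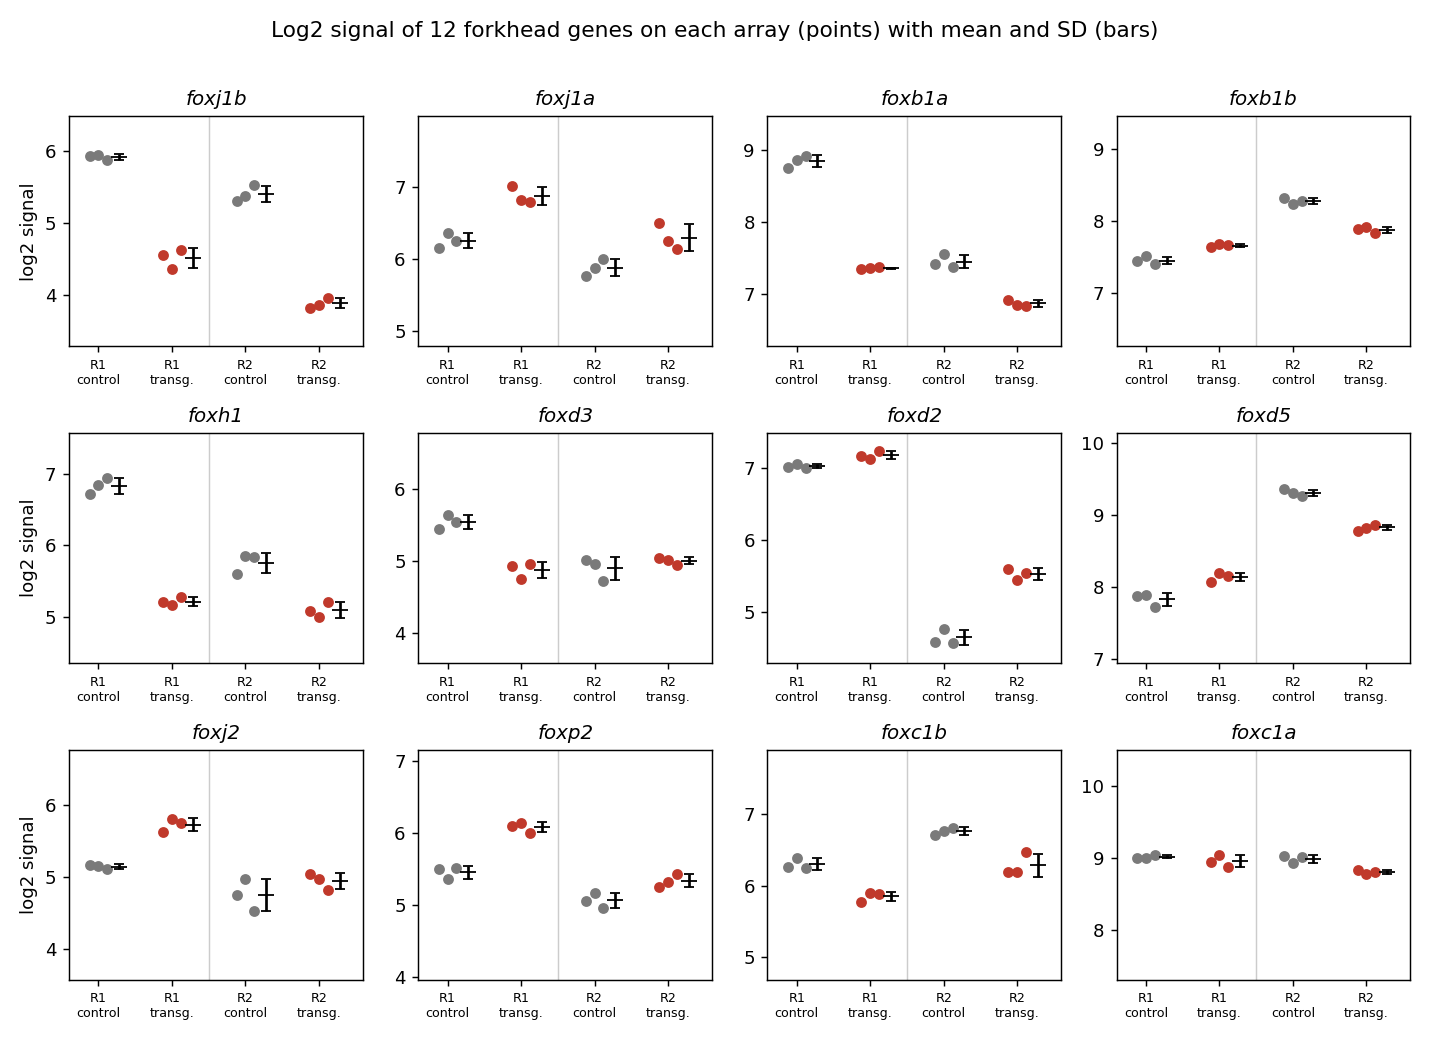
Log2 signal (vertical) of 12 Fox genes on each of the 12 arrays, with points for arrays in grey for control and red for transgenic pieces, R1 and R2 for the regions, and black bars for the mean and SD of 3 arrays. All panels span the same log2 range. *foxj1b* fell in both regions, the fall of *foxb1a* and *foxh1* was larger in Region 1, and *foxd2* rose in Region 2 from a low control level of 4.65.

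Among the probe sets chosen per gene, *foxh1* had the largest fall in Region 1, while the second probe set of *foxj1b* fell further. *foxh1* read 6.72, 6.84 and 6.94 in control arrays and 5.21, 5.17 and 5.28 in transgenic arrays, a 3.06-fold difference (-1.61 ± 0.0812 log2, adjusted p = 0.00242). In Region 2 it read 5.60, 5.86 and 5.84 in control and 5.09, 5.00 and 5.22 in transgenic arrays, again with all transgenic arrays below, but by 1.58-fold, which missed the threshold (-0.66 ± 0.102, adjusted p = 0.0692) and passed it in 5 of 10 other settings. The effect in Region 1 was the larger one, with a difference between the regions of 0.95 ± 0.13 log2 (adjusted p = 0.0212). In transgenic pieces the means of the regions lay close to each other, 5.22 ± 0.06 and 5.10 ± 0.11, while in control pieces they were 6.83 ± 0.11 and 5.76 ± 0.14.

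Other genes of the Nodal pathway were counted beside *foxh1*. Of 26 measured ligands, receptors, antagonists and target genes, 1 was higher in Region 1 and none lower, the T-box gene *tbx16* (0.95 log2, adjusted p = 0.0162), which is also one of the tailbud markers. In Region 2 *gata5*, an endoderm and heart factor, was lower (-0.55, adjusted p = 0.0314). In each region p was under 0.05 before adjustment for 5 higher and 3 lower genes, and the list's medians were 0.03 and 0.02 log2.

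Among neural tube genes, *foxb1a* fell in both regions. In Region 1 it read 8.76, 8.86 and 8.92 in control arrays and 7.35, 7.36 and 7.38 in transgenic arrays, 2.8-fold lower (-1.49 ± 0.0695 log2, adjusted p = 0.00164). In Region 2 it read 7.42, 7.56 and 7.38 in control and 6.92, 6.85 and 6.84 in transgenic arrays, 1.5-fold lower (-0.58 ± 0.0773, adjusted p = 0.0442). The groups did not overlap in either region, and the fall was larger in Region 1 (difference 0.90 ± 0.0963 log2, adjusted p = 0.0057). A second probe set fell by 1.51 in Region 1 (adjusted p = 0.00164) and differed by -0.61 in Region 2 (adjusted p = 0.129). The Region 2 call was lost without any of the 6 arrays (adjusted p from 0.135 to 0.195), and passed in 5 of 10 other settings, not with arrays centred on their medians or quantile normalised.

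Its duplicate *foxb1b* took another course. It read 7.44, 7.51 and 7.41 in control and 7.64, 7.68 and 7.67 in transgenic arrays of Region 1, and 8.32, 8.24 and 8.28 in control and 7.89, 7.92 and 7.84 in transgenic arrays of Region 2. Transgenic arrays were thus above the controls in Region 1 and below them in Region 2, and neither difference passed on its own (0.21 ± 0.0636 log2, adjusted p = 0.264, and -0.39 ± 0.0667, adjusted p = 0.0873). The regions differed from each other in the transgenic effect (-0.60 ± 0.0801, adjusted p = 0.018). The log2 ratio of *foxb1a* to *foxb1b* within an array changed by -1.70 in Region 1 and by -0.19 in Region 2.

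Of the other 7 genes of the neural tube and forebrain set, 1 passed the test in Region 1 and none in Region 2. This was *foxj2*, whose role in the zebrafish embryo is less known. It read 5.17, 5.16 and 5.12 in control and 5.63, 5.81 and 5.76 in transgenic arrays of Region 1 (0.58 ± 0.0722 log2, adjusted p = 0.039), and its Region 2 difference was 0.19 ± 0.126 (adjusted p = 0.658). The Region 1 difference stayed at 0.54 to 0.63 log2 with each of the 6 arrays left out, but the call was lost each time (adjusted p from 0.103 to 0.156). *foxn4*, a factor of retinal and spinal progenitors, differed by 0.29 in Region 1 (adjusted p = 0.447).

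*foxd3*, the neural crest gene that also acts in somites, read 5.45, 5.65 and 5.55 in control and 4.93, 4.75 and 4.96 in transgenic arrays of Region 1. All transgenic arrays were below the controls, by 1.59-fold (-0.67 ± 0.0888 log2, adjusted p = 0.045). In Region 2 the groups overlapped, with 5.02, 4.96 and 4.72 in control and 5.05, 5.02 and 4.95 in transgenic arrays (0.10 ± 0.0969, adjusted p = 0.776). The difference between the regions was 0.77 ± 0.131 log2 and missed the threshold (adjusted p = 0.054, from 0.0122 to 0.136 over 9 other settings). The Region 1 call was lost without any of the 6 arrays (adjusted p from 0.119 to 0.164).

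Of 27 measured genes of neural crest and the plate border, 5 were lower in Region 1 and 1 was higher. The fallers were the homeobox gene *msx3* (-1.65 log2), the AP-2 factor *tfap2c* (-1.03), the zinc finger gene *zic2a* (-0.96), *mycn* (-0.57) and the paired box gene *pax3a* (-0.53), and the bHLH gene *olig3* rose by 0.59. In Region 2, 3 were lower, *msx3* (-2.05), *tfap2c* (-0.67) and *pax3a* (-0.50), and none was higher. The median of the list was -0.10 log2 in Region 1 and -0.05 in Region 2. Before adjustment, p was under 0.05 for 5 higher and 10 lower genes in Region 1 and for 4 higher and 11 lower ones in Region 2.

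The class D genes *foxd2* and *foxd5* had opposite patterns along the axis. *foxd2* read 4.59, 4.77 and 4.58 in control and 5.60, 5.45 and 5.55 in transgenic arrays of Region 2, a 1.85-fold rise (0.89 ± 0.0854 log2, adjusted p = 0.0185). In Region 1 it read 7.02, 7.06 and 7.01 in control and 7.18, 7.13 and 7.25 in transgenic arrays (0.15 ± 0.0649, adjusted p = 0.404), and the regions differed in the effect by 0.73 ± 0.101 log2 (adjusted p = 0.0214). The Region 2 rise kept its direction but lost the call without any of the 6 arrays (adjusted p from 0.0626 to 0.102), and the methods' one-way ANOVA did not call it.

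*foxd5* read 7.88, 7.89 and 7.73 in control and 8.07, 8.20 and 8.15 in transgenic arrays of Region 1, and 9.36, 9.31 and 9.27 in control and 8.78, 8.82 and 8.87 in transgenic arrays of Region 2. Its transgenic arrays lay above the controls in Region 1 (0.31 ± 0.0774 log2, adjusted p = 0.187) and below them in Region 2 (-0.49 ± 0.0675, adjusted p = 0.0505), and the difference between the regions passed the test (-0.80 ± 0.0946, adjusted p = 0.011). A dim second probe set of *foxd5* gave -0.07 in Region 1, -0.14 in Region 2 and -0.06 for the difference, and with the mean of the probe sets the call on the difference was lost (adjusted p = 0.0822). In control pieces *foxd5* was 2.8-fold higher in Region 2, and *foxd2* was 5.23-fold higher in Region 1. For both genes, and for *foxb1b*, the difference between the regions was therefore smaller in transgenic than in control pieces. The log2 ratio of *foxd5* to *foxd2* within an array differed by 0.16 between the genotypes in Region 1 and by -1.37 in Region 2.

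**Figure D3:**
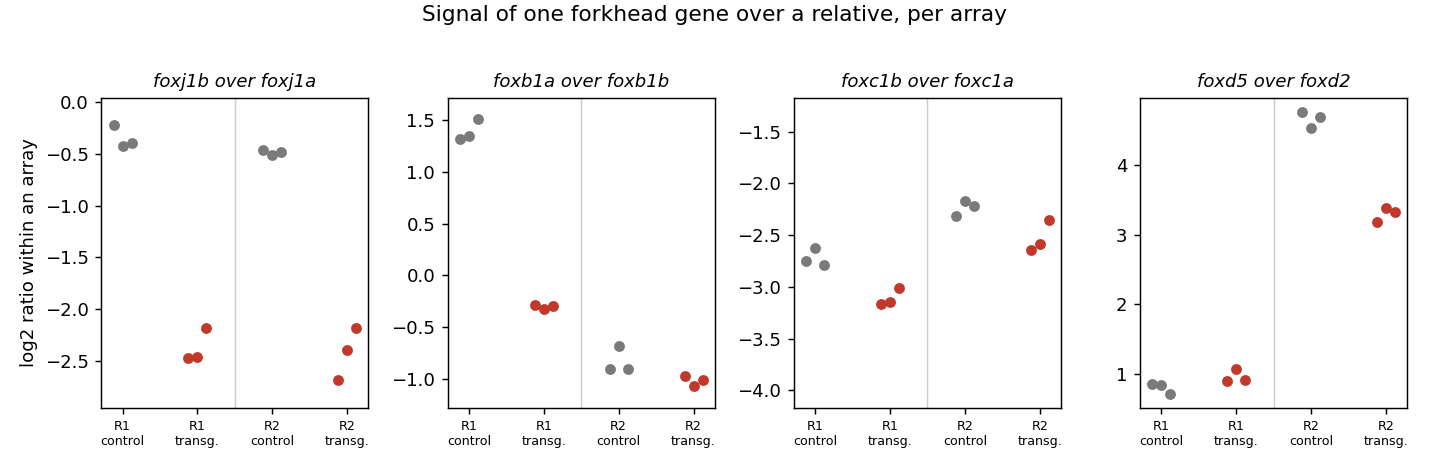
Log2 ratio of 1 Fox gene to a relative on each array (vertical), with grey points for control and red points for transgenic pieces, R1 and R2 for the regions; each panel has its own axis. *foxj1b* fell against *foxj1a* by about as much in Region 1 (-2.03) as in Region 2 (-1.94), while *foxb1a* changed against *foxb1b* by -1.70 in Region 1 and by -0.19 in Region 2.

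The mesoderm genes *foxc1a* and *foxc1b* did not pass the test in either region. *foxc1a* read 9.01, 9.01 and 9.04 in control and 8.95, 9.04 and 8.88 in transgenic arrays of Region 1 (-0.07 log2, adjusted p = 0.757), and differed by -0.19 in Region 2 (adjusted p = 0.374). *foxc1b* read 6.26, 6.39 and 6.25 in control and 5.77, 5.89 and 5.88 in transgenic arrays of Region 1, without overlap (-0.46 ± 0.0736, adjusted p = 0.0723). In Region 2 it read 6.71, 6.76 and 6.80 in control and 6.19, 6.19 and 6.46 in transgenic arrays, also without overlap (-0.48 ± 0.0965, adjusted p = 0.133). A dim second probe set of *foxc1b* differed by 0.09 and 0.11 log2. Region 1 passed in 4 of 10 other settings and Region 2 in 2 of 10. The ratio of *foxc1b* to *foxc1a* changed by -0.39 log2 in Region 1 and by -0.29 in Region 2.

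Among 27 measured genes of angioblasts and early vessels, *etv2*, which starts the vessel and blood programme together with Foxc factors, fell by 2.08 in Region 1 and by 2.99 in Region 2 (adjusted p = 0.00109 and 0.00194), and *tal1*, a blood and vessel bHLH factor, fell by 0.62 and 1.30 (adjusted p = 0.0495 and 0.00563). The chemokine *cxcl12b* fell by 1.39 in Region 1 and the chemokine receptor *cxcr4a* by 0.80 in Region 2, while *cxcr4b* rose by 0.86 and 0.81. In all, 3 genes fell and 1 rose in each region, with list medians of 0.01 and 0.03 log2. Before adjustment, p was under 0.05 for 6 higher and 6 lower genes in Region 1. In Region 2 it was for 7 higher and 8 lower ones, and the one-way ANOVA called 2 genes in each region. The study chose *etv2* and *cxcl12b* with these arrays. It looked up *foxc1b* because Foxc proteins are known to interact with Etv2, and kept it although it missed the study's thresholds. The falls given here come from the same arrays, so they are not independent evidence of a direction. The same limit holds for *tal1*, *msx3*, *fgf3* and *myf5*. They are in the study's qPCR primer list but not among the genes it counts as downstream. For *etv2*, *cxcl12b* and *foxc1b* the paper reports qPCR on other pools from the somite region. Levels were lower after overexpression and higher after knockdown of *dmrt2a*. The paper also measured *foxc1a* by qPCR and reports that the knockdown did not bear this gene out. Those qPCR values were not used here.

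The remaining groups held 1 call with the transgene. *foxp2*, a gene of the developing brain, read 5.50, 5.35 and 5.51 in control and 6.10, 6.14 and 6.0 in transgenic arrays of Region 1 (1.54-fold, 0.63 ± 0.0791 log2, adjusted p = 0.0413), and differed by 0.27 in Region 2 (adjusted p = 0.328). Its other 2 probe sets differed by 0.29 and 0.33 in Region 1 and missed the threshold (adjusted p = 0.151 and 0.327), and the call was lost without any of the 6 arrays (adjusted p from 0.126 to 0.152). The lateral plate and gut mesenchyme genes *foxf1*, *foxf2a*, *foxf2b* and *foxl1* ran from -0.14 to 0.52 in Region 1 and from -0.18 to 0.02 in Region 2. The 7 *foxo* genes of insulin signalling ran from -0.13 to 0.28 and from -0.08 to 0.29.

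*foxa2*, of the floor plate and endoderm, read 7.42, 7.42 and 7.46 in control and 7.73, 7.74 and 7.71 in transgenic arrays of Region 2. The arrays did not overlap, and the limma test gave 0.29 log2 with adjusted p = 0.153, while the methods' one-way ANOVA called it. *foxm1*, which drives G2 and M phase genes, differed by 0.10 in Region 1 and by 0.11 in Region 2 (adjusted p = 0.66 and 0.626). Of 27 measured G2 and M phase genes none passed in either region by limma, 4 in Region 1 and 7 in Region 2, all of them higher, had an unadjusted p under 0.05, and the one-way ANOVA called 1 in each region. The 6 genes of otic placode, lens, thyroid and ionocytes ran from -0.33 to 0.17 in Region 1 and from -0.46 to 0.33 in Region 2. Of 22 measured otic and ionocyte genes, the ligand *fgf3* fell in Region 1 (-1.62, adjusted p = 0.00359) and *sox3*, a neural and placode progenitor gene, rose in Region 2 (0.75, adjusted p = 0.0204). Before adjustment, p was under 0.05 for 2 higher and 7 lower genes in Region 1. In Region 2 it was for 2 higher and 6 lower ones. The list median was -0.07 log2 in both regions, and the one-way ANOVA called 1 gene in Region 1 and 0 in Region 2.

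Control pieces gave the place of each gene along the axis before any transgene effect. These values use the same control arrays as the comparisons above, so the patterns are given side by side only. In control pieces 29 of the 59 Fox genes were higher in Region 1 (49.2%, against 26.0% of all named genes) and 6 in Region 2 (10.2%, against 11.7%). The median Fox gene was higher in Region 1 by 0.23 log2, beside 0.08 over all named genes. Scaling bears on this split. The median of all probe sets between the regions was 0.0578 as deposited, -0.125 with each array centred on its median and -0.00152 after quantile normalisation. With centring, 21 Fox genes were higher in Region 1 (35.6%, against 13.2% of all named genes) and 14 in Region 2 (23.7%, against 28.1%). After quantile normalisation 23 were higher in Region 1 (39.0%, against 16.4%) and 10 in Region 2 (16.9%, against 17.6%).

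**Figure D4:**
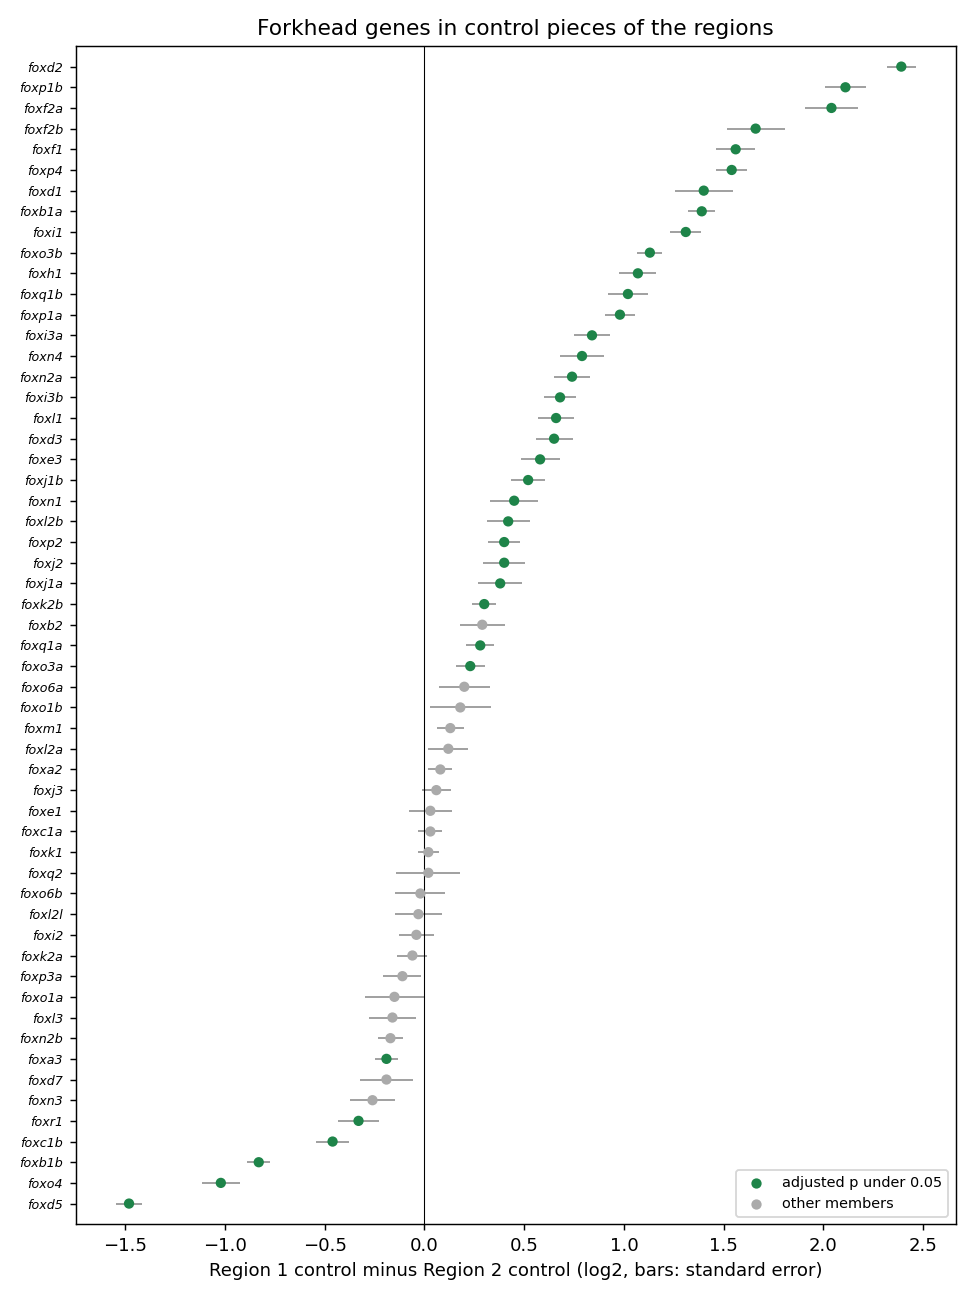
Difference between Region 1 and Region 2 control pieces (horizontal, log2, Region 1 minus Region 2) for 56 of the 59 Fox genes, sorted, with standard errors and with green points for an adjusted p under 0.05. The range is from -1.48 for *foxd5* to 2.39 for *foxd2*, and more green points lie right of 0 than left of it.

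The gene highest in Region 1 against Region 2 was *foxd2* (2.39 ± 0.0712 log2, adjusted p = 2.74e-09). Next was *foxp1b*, a *foxp1* duplicate, with 7.75, 7.76 and 7.79 in Region 1 and 5.70, 5.52 and 5.76 in Region 2 control arrays (4.31-fold, adjusted p = 1.37e-07). *foxp4*, of the same class, read 7.16, 7.28 and 7.29 against 5.84, 5.59 and 5.67 (1.54 log2, adjusted p = 1.58e-07). Neither differed with the transgene past the threshold. Between the control pieces a second probe set of *foxp1b* differed by 2.26 (adjusted p = 1.27e-08). A dim second probe set of *foxp4* differed by -0.19 (adjusted p = 0.125).

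All 4 genes of the lateral plate group were higher in Region 1, beside 26.0% of all named genes. *foxf2a* read 5.68, 5.56 and 5.59 in Region 1 and 3.75, 3.42 and 3.54 in Region 2 (2.04 log2, adjusted p = 1.12e-06). Dim second probe sets of *foxf2a* and *foxl1* differed by 0.55 and -0.07 with overlapping arrays (adjusted p = 0.064 and 0.594). *foxf2b* read 3.79, 4.05 and 3.53 against 2.24, 2.22 and 1.92 (1.66, adjusted p = 1.32e-05), and *foxf1*, which patterns gut muscle and lateral mesoderm, read 3.96, 4.15 and 3.92 against 2.54, 2.34 and 2.45 (1.56, adjusted p = 9.41e-07). The Region 2 signals of *foxf2b* and *foxf1* lie below the array median, where a low level cannot be told from background with these values. In a newer annotation of the zebrafish genome *foxf2a* and *foxf2b* lie in 2 clusters: *foxf2a* has *foxq1a* as its next protein-coding gene and *foxc1a* with 1 gene between, and *foxf2b* lies between *foxq1b* and *foxc1b*. Yet *foxc1a* differed by 0.03 between the regions and *foxc1b* was higher in Region 2, while *foxq1a* and *foxq1b* were higher in Region 1 by 0.28 and 1.02 log2. The *foxq1a* signals, 2.83 and 2.55 on average in Region 1 and Region 2, lie below the array medians, as does *foxq1b* in Region 2 at 2.87, so the same limit applies to them. *foxe3* and *foxd2* are neighbours too, and both were higher in Region 1, by 0.58 and 2.39. A dim second probe set of *foxe3* differed by 0.12 with overlapping arrays (adjusted p = 0.514).

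Of the 6 genes of otic placode, lens, thyroid and ionocytes, 4 were higher in Region 1, beside 26.0% of all named genes. They were *foxe3*, given above, *foxi1*, *foxi3a* and *foxi3b*. *foxi1*, needed for the otic placode, was 7.67, 7.78 and 7.66 in Region 1 and 6.52, 6.34 and 6.32 in Region 2 (1.31 log2, adjusted p = 6.16e-07), and *foxi3a* and *foxi3b*, of ionocytes, were higher by 0.84 and 0.68. *foxb1a* (1.39), *foxh1* (1.07), *foxd3* (0.65), *foxj1b* (0.52), *foxp2* (0.40), *foxj2* (0.40) and *foxj1a* (0.38) were also higher in Region 1. For *foxj1a* and *foxj2* this was lost with arrays centred or quantile normalised, and for *foxp2* with arrays centred. It was also lost for *foxj1a* without Region 1 control array 2 or 3 or Region 2 control array 1 or 2 (adjusted p up to 0.0905), and for *foxj2* without Region 2 control array 3 (0.0528).

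Of the 6 genes higher in Region 2 control pieces, *foxd5* (-1.48 log2, Region 1 minus Region 2, adjusted p = 6.62e-08), *foxo4* and *foxb1b* stood out in size. *foxo4*, a target of insulin signalling, read 6.81, 6.77 and 6.65 in Region 2 and 5.52, 5.76 and 5.89 in Region 1 (-1.02 log2, adjusted p = 2.5e-05). *foxb1b* was higher in Region 2 by 1.77-fold (adjusted p = 1.92e-06), opposite to *foxb1a*. *foxc1b* was lower in Region 1 by 1.37-fold (adjusted p = 0.00237). Its dim second probe set differed by 0.06 (adjusted p = 0.662), and the call was lost with the mean of the probe sets (adjusted p = 0.0524). *foxr1* (-0.33, adjusted p = 0.0379) and *foxa3*, of endoderm and notochord (-0.19, adjusted p = 0.0354), were near the threshold, and calls were lost with 1 array left out. For *foxa3* this was any Region 1 control array or Region 2 control array 1 or 2 (adjusted p up to 0.106), and for *foxr1* Region 1 control array 1 or 3, Region 2 transgenic array 2 or Region 2 control array 1 or 3 (up to 0.128). The *foxr1* control signals, 2.82 and 3.15 on average in Region 1 and Region 2, lie below the array medians. Such low levels cannot be told from background with these values. Among the other *foxo* genes, *foxo3b* was higher in Region 1 by 1.13 and *foxo3a* by 0.23 (adjusted p = 0.0394). The *foxo3a* call was lost with arrays centred or quantile normalised, and without any Region 1 array or any Region 2 control array.

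The transgenic effect differed between the regions for 5 Fox genes, *foxb1a*, *foxh1*, *foxd5*, *foxd2* and *foxb1b*, which is 8.47% of them, against 0.387% of all named genes. The differences were 0.90, 0.95, -0.80, 0.73 and -0.60 log2 (Region 2 effect minus Region 1 effect). *foxb1a* and *foxd5* kept the call with each of the 12 arrays left out. *foxh1* kept it in 4 of the 12, without Region 1 control array 1, Region 2 transgenic array 2 or Region 2 control array 1 or 2, with adjusted p from 0.0418 to 0.0752 over all 12. *foxb1b* kept it in 3, without array 2 of Region 1 control, Region 2 transgenic or Region 2 control (0.04 to 0.0686), and *foxd2* in 2, without array 2 of Region 2 transgenic or Region 2 control (0.0282 to 0.0752). With each array of a region left out in turn, 3 Fox genes stayed called in Region 1 (*foxh1*, *foxb1a* and *foxj1b*, highest adjusted p 0.0331, 0.0254 and 0.0489) and 1 in Region 2 (*foxj1b*, highest adjusted p 0.0425).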

How the data were processed

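Log2 signals of 75212 probe sets on 12 Affymetrix zebrafish gene arrays were made by the authors with Affymetrix Expression Console and used as deposited; the summarisation and normalisation are not given in the sources used here, nor whether both regions were normalised together. Background was not assessed. The values run from 0.739 to 12.51. Arrays of a group correlated at 0.988 to 0.992, and 3 against 3 arrays limit the precision. In the platform annotation 29528 probe sets had 1 symbol, 1845 several and 43839 none. All 59 Fox symbols were found in a newer annotation and 0 changed.

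R 4.3.3 with limma 3.58.1 (lmFit, eBayes) fitted transgenic minus control in each region on 6 arrays, and on all 12 arrays with 4 group means the difference of these effects and the difference between control pieces. P-values are two-sided, Benjamini-Hochberg adjusted over all probe sets, and called under 0.05. An exact permutation test of 3 against 3 arrays cannot give a p under 0.1. The fits were tested on simulated data. Counts over genes use 1 probe set per gene. The study's one-way ANOVA, scaling, filters, a replicate block and leaving out arrays were alternatives.

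Members, role groups and gene lists were chosen with earlier results of these data known. Named in full were genes called in a region or in the difference, *foxj1a*, *foxj1b*, *foxh1*, *foxb1a*, *foxc1a*, *foxc1b* and *foxd3*, the 6 largest control differences each way, and duplicates of these. Deviations of same-numbered arrays correlated weakly (from -0.055 to 0.0787), so arrays were taken as unpaired. Pairs of the same genotype across the regions were all positive (0.017 to 0.0787), while the other pairs went both ways (-0.055 to 0.036). The methods describe a pool of each region per condition and replicate, but not whether both pools came from the same embryos. Tests between the regions treat their arrays as independent, and shared embryos were not tested. No sequence was used here. Some members enter the counts but are not reported here one by one.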

Additional observations from a re-analysis of the deposited data

Results flagged for a closer look

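For 5 Fox genes the transgenic effect in Region 2 differed from that in Region 1 by the test of the difference itself. The effect in Region 2 minus that in Region 1 was 0.90 log2 for *foxb1a* and 0.95 for *foxh1*, which fell more in Region 1. It was 0.73 for *foxd2*, which rose in Region 2, where its control level was low. It was -0.80 for *foxd5* and -0.60 for *foxb1b*, whose transgenic arrays lay above the controls in Region 1 and below them in Region 2. Tailbud markers were also higher in Region 1 transgenic pieces (4 of 12 past the limma test, list median 0.30 log2, 8 higher and 2 lower before adjustment) and not past the test in Region 2 (median 0.09), and the one-way ANOVA called 0 in either region, and *foxd5* and *foxb1b* share their higher level in Region 2 control pieces. The part of tissue content in these differences was not tested.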

How the results depend on the processing

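Of the 6 Fox genes changed in Region 1, the one-way ANOVA of the methods called 3 and a fold of 2 left 3, while testing only probe sets with 1 symbol gave 10, and leaving out each array gave 3 in every case. Of the 3 in Region 2, fitting all 12 arrays gave 9, a trended and robust spread 7, array weights 5, a filter that kept brighter probe sets 7, restriction to 1 symbol 9, a fold of 2 left 1, the one-way ANOVA called 2 (*foxj1b* and *foxa2*), centring, quantile normalisation and the mean of probe sets each gave 2, and leaving out each array left 1 every time. The 5 genes that differed between regions ranged from 2 to 5 with an array left out. The 6 genes higher in Region 2 control pieces became 10 with quantile normalisation and 14 with arrays centred on their medians. No called value changed direction in these settings. The shares of all named genes are given above for the fold of 2 and for the scalings of the control pieces. In the other settings, the replicate block included, they were not counted. A change in those counts is therefore not a result about Fox genes. With the replicate block, limma called 0 Fox genes in Region 1 (21 at an unadjusted p under 0.05), 0 in Region 2 (14) and 3 for the difference, with adjusted p for *foxj1b*, *foxb1a* and *foxh1* in Region 1 of 0.0999, 0.0647 and 0.0647; the numbers are not known to pair the arrays, so this does not describe a weaker effect. The 26 genes with a mean log2 signal below 4 gave 0 calls in either region by limma in the fits of the report, and the depth of signal over background is not known for them. The share called among all named genes with signals that low was not counted.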
